A study of Saccharomyces cerevisiae with 30 samples.

Results

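The eisosome lies under a furrow of the yeast plasma membrane. Of the 7 genes described here, 5 encode proteins that span this membrane (SUR7, FMP45, PUN1, YNL194C and NCE102). The other 2 encode coat proteins that bind the membrane from the cytosolic side (PIL1 and LSP1). All 7 genes were chosen by name, as the SUR7 family of tetraspan proteins with NCE102 and the main coat proteins. Earlier results of these data were known at that time. They are 7 of the 5904 open reading frames counted in the series. Reads were counted in 24 libraries of budding yeast, 10 made from ribosome footprints and 14 from poly(A) RNA, to learn where messages are translated and when the signal recognition particle (SRP) holds the ribosomes that read them. SRP is the complex that meets a hydrophobic signal on a ribosome and brings it to the endoplasmic reticulum (ER).

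The footprint libraries came from the strain BY4741 with a TAP tag on SRP72, a protein subunit of SRP, which all these samples carry. SRP72-bound polysomes (pulled down by the tag from soluble material), membrane polysomes and soluble polysomes had 2 libraries each, with no drug before harvest. Single libraries came from cultures given cycloheximide (CHX, which stops elongating ribosomes) at 100 µg/mL and harvested at once: SRP72-bound polysomes, membrane ribosomes, soluble polysomes and soluble ribosomes. RNA libraries were single as well. In BY4741 SRP72-TAP, SRP72-bound, membrane and soluble RNA was taken from lysates incubated with puromycin, which releases nascent chains, or with CHX. In CY2522, which carries the prt1-1 allele, and in W303, membrane and soluble RNA was taken after 1 hour at 37 °C or from growth at 25 °C. The labels give no genotype for W303 beyond its name, and do not say that CY2522 was made from it. All cultures grew in YPD to mid-log phase.

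The eisosome lies under a patch of plasma membrane called the membrane compartment occupied by Can1 (MCC), where SUR7 family proteins, NCE102 and several nutrient transporters gather. PIL1 and LSP1 are a pair of closely related proteins with a curved BAR domain that are made on cytosolic ribosomes and assemble into the furrow's coat. The membrane-spanning members reach the plasma membrane by way of the ER, so their messages can be brought to the ER while they are translated.

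Depth ranged from 16.058 to 34.662 M counts in the footprint libraries and from 3.139 to 34.3 M in the RNA libraries. Levels are given as scaled CPM, which are counts per M counted reads after TMM scaling (a factor per library that centres most genes), and levels of different genes are compared only per kilobase of reading frame. Whether the replicates are separate cultures is not in the labels, so each p-value reflects no more than the spread between the sampled libraries, which may be technical. Of 5 genes used as markers of the membrane fraction (KAR2, SEC61, PMA1, PDI1 and ERG11) all 5 were higher in membrane than in soluble polysomes. Of 5 cytosolic genes 1 was higher, 2 were lower and 2 did not pass the test. Footprints of SRP72 itself, the tagged protein, were higher in SRP72-bound than in soluble polysomes by 2.99 ± 0.16 (SE) on the log2 scale. Intervals given for single libraries cover counting error only.

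In the RefSeq annotation of R64 SUR7 (YML052W) lies at chrXIII:170402-171310, FMP45 (YDL222C) at chrIV:60872-61801 and PUN1 (YLR414C) at chrXII:953353-954144. YNL194C lies at chrXIV:272710-273615 and NCE102 (YPR149W) at chrXVI:829918-830439. The coat genes are PIL1 (YGR086C) at chrVII:649598-650617 and LSP1 (YPL004C) at chrXVI:550632-551657. The authors' deposited table puts the first signal, the start of the signal sequence or transmembrane stretch nearest the N-terminus, at codon 8 in SUR7, 6 in FMP45, 4 in PUN1, 7 in YNL194C and 10 in NCE102. From there to the stop codon the table gives 294 codons for SUR7 and YNL194C and 259 for PUN1, against 163 for NCE102, and FMP45, with 309 codons in all, is the longest of the 5. All 5 are marked SRP dependent in that table, with SUR7, FMP45, YNL194C and NCE102 in its class TMD and PUN1 in its class SSTMD. PIL1 and LSP1, of 339 and 341 codons, are in its cytonuclear class and have no signal.

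In footprints without drug the membrane-spanning members were all higher in SRP72-bound and in membrane polysomes than in soluble polysomes. The fitted changes were 6.79-fold to 145-fold. For FMP45 and YNL194C, which had few reads, the filter on low counts fixed that direction. The coat messages differed by less than 2-fold in every comparison of these footprints. SUR7, the founding member of the family, had 1810 and 1560 scaled CPM in SRP72-bound polysomes and 728 and 550 in membrane polysomes, against 17.4 and 18.3 in soluble polysomes. Its 3 fractions did not overlap. The log2 fold change was 6.56 ± 0.19 (SE) for SRP72-bound against soluble and 5.16 ± 0.18 for membrane against soluble, with adjusted p of 6.47e-09 and 2.36e-08 by the quasi-likelihood test of edgeR, adjusted after Benjamini and Hochberg, which was used for all replicated comparisons here.

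PUN1, a plasma membrane protein of the same family, had 489 and 450 scaled CPM in SRP72-bound polysomes and 315 and 242 in membrane polysomes, against 6.29 and 6.26 in soluble polysomes. Again no fraction overlapped another. Of the 7 genes PUN1 had the highest membrane fold change (log2 5.47 ± 0.16, adjusted p = 1.2e-08 by edgeR) and the lowest gain of SRP72-bound over membrane polysomes among the spanning members (0.75 ± 0.13, adjusted p = 0.00155 by edgeR). In SRP72-bound against soluble polysomes it was higher by 6.22 ± 0.17 on the log2 scale (adjusted p = 4.98e-09 by edgeR).

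NCE102, a small tetraspan protein of the MCC from a different family that has been linked to sphingolipid sensing, had the largest footprint levels of the 7 in SRP72-bound and membrane polysomes. It had 48500 and 34300 scaled CPM in SRP72-bound polysomes and 2250 and 1630 in membrane polysomes, against 302 and 269 in soluble polysomes. In the SRP72-bound libraries this single message took 2.66% and 2.09% of all counted footprints, against 0.194% and 0.149% in membrane polysomes and 0.0433% and 0.0376% in soluble polysomes. Its membrane fold change was the lowest of the spanning members (log2 2.76 ± 0.23, adjusted p = 9.21e-06 by edgeR) and its SRP72-bound fold change the highest (7.18 ± 0.28, adjusted p = 3.78e-08 by edgeR). SRP72-bound polysomes therefore stood above membrane polysomes by 4.42 ± 0.24 on the log2 scale, 21.3-fold (adjusted p = 2.38e-06 by edgeR).

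FMP45 and YNL194C, a pair of SUR7 paralogs, had few footprints in these cells. FMP45 had 61 and 34 reads in SRP72-bound polysomes and 33 and 17 in membrane polysomes, against 8 and 2 in soluble polysomes. YNL194C had 102 and 64 reads in SRP72-bound polysomes and 16 and 13 in membrane polysomes, against 1 and 2 in soluble polysomes. The fractions did not overlap for either gene, but both passed the filter on low counts only through the membrane and SRP72-bound libraries, so their fold changes were bound to be positive.

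With reads summed over replicates, FMP45 was 27.7-fold higher in SRP72-bound than in soluble polysomes (95% exact counting interval 14.4 to 59.5) and 8.3-fold higher in membrane than in soluble polysomes (4.16 to 18.3). YNL194C, with 3 soluble reads in all, had a ratio of 161 for SRP72-bound over soluble polysomes (54.2 to 789) and of 16 for membrane over soluble polysomes (4.97 to 82.3). These ratios over soluble polysomes are given as a description, since the filter fixed their direction. YNL194C also stood 10-fold higher in SRP72-bound than in membrane polysomes (6.74 to 15.5, adjusted p = 1.21e-05 by edgeR), and FMP45 3.33-fold (2.34 to 4.79, adjusted p = 0.00185 by edgeR).

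**Figure D1:**
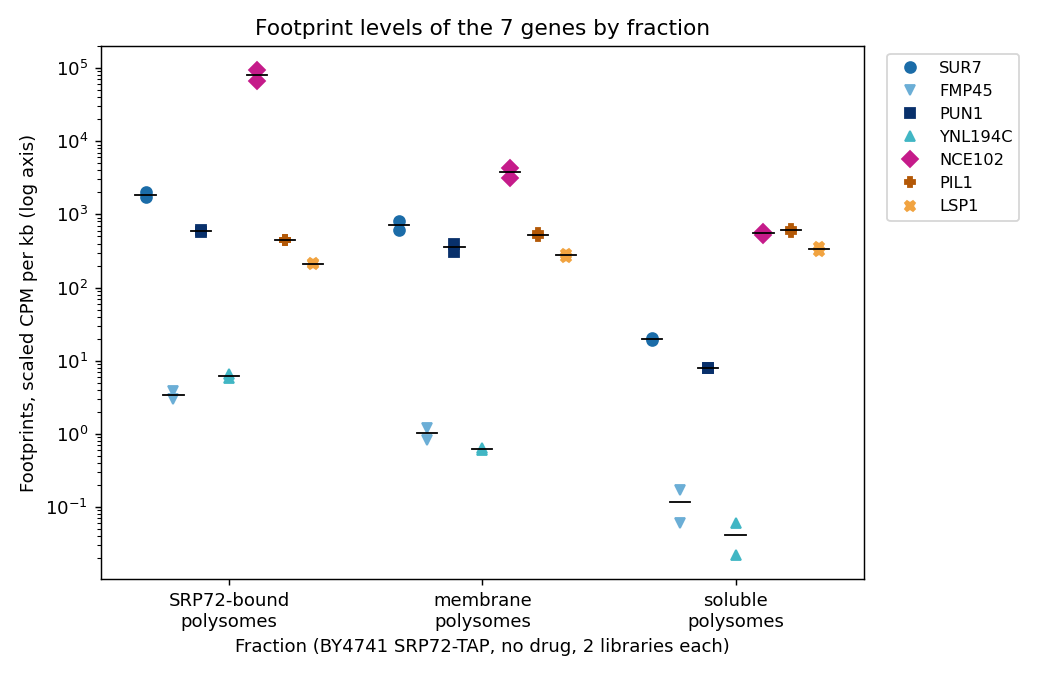
Footprint levels of the 7 genes in SRP72-bound, membrane and soluble polysomes, in scaled CPM per kilobase on a log axis; points are the 2 libraries of a fraction and the short line is their mean. The 5 spanning genes step down from left to right, with NCE102 highest at 93500 and 66100 in SRP72-bound polysomes, while PIL1 and LSP1 stay between 208 and 635 throughout.

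The coat messages lay within 2-fold between the fractions. PIL1, the main coat protein, had 458 and 450 scaled CPM in SRP72-bound polysomes and 509 and 559 in membrane polysomes, against 587 and 646 in soluble polysomes. LSP1, its paralog, had 223 and 213 in SRP72-bound polysomes and 267 and 299 in membrane polysomes, against 328 and 363 in soluble polysomes. For both genes the 3 fractions lay in the same order, with no overlap between any 2 of them.

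Both coat genes were lower in SRP72-bound than in soluble polysomes, PIL1 by a log2 change of -0.44 ± 0.10 (adjusted p = 0.00327 by edgeR) and LSP1 by -0.67 ± 0.10 (adjusted p = 0.000332 by edgeR). In membrane against soluble polysomes PIL1 did not pass the test (-0.21 ± 0.10, adjusted p = 0.0908 by edgeR), and LSP1 was called lower (-0.29 ± 0.10, adjusted p = 0.0299 by edgeR). The LSP1 call was lost without soluble replicate 2 (-0.21) and without membrane replicate 1 (-0.20). When libraries were scaled to the authors' cytonuclear genes alone, the membrane values became 0.01 for PIL1 and -0.07 for LSP1 and neither was called, and the SRP72-bound value of PIL1 became -0.14, also not called. The step between membrane and soluble coat levels is thus of the size that the choice of scaling moves.

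In membrane against soluble polysomes 5 members were called higher and 1 lower of 7, where 34.2% of the 5393 genes tested were called higher and 34.8% lower. In SRP72-bound against soluble polysomes 5 were higher and 2 lower, where 38.6% of genes were higher and 39.5% lower. In SRP72-bound against membrane polysomes 5 were higher and 1 lower, where 29.2% of genes were higher and 29.8% lower. Calls were thus common in this series, and these counts of members are read against that. The 5 spanning members belong to the authors' classes TMD and SSTMD. Of 615 tested genes in these classes 542, 589 and 497 were called higher in the 3 comparisons in turn. The median log2 change was -0.07, -0.05 and -0.02 over all genes in these 3 comparisons, and 3.84, 6.56 and 1.73 over the 5 spanning members. The middle member was YNL194C in the first of these and FMP45 in the third, both with few reads, so these medians are a description. Without FMP45 and YNL194C, which passed the filter through 2 fractions only, the 3 remaining spanning members were all higher in each comparison.

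**Figure D2:**
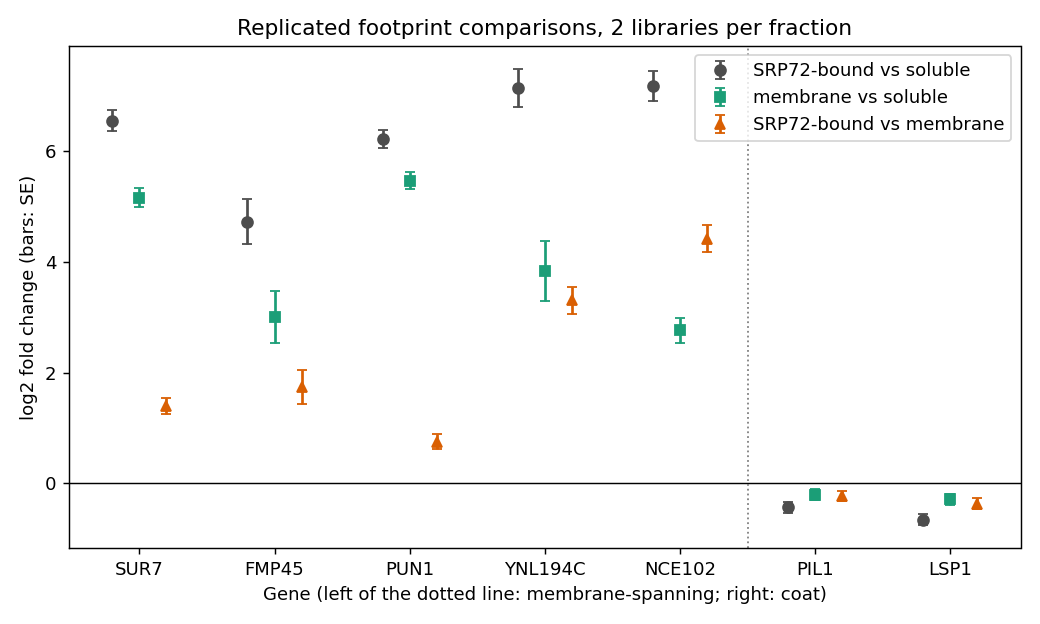
Fold changes of footprints on the log2 scale for the 7 genes in the replicated comparisons, with bars for the SE and 2 libraries per fraction. Spanning members lie between 0.75 and 7.18 above 0, the coat members between -0.67 and -0.21 (PIL1 in membrane against soluble polysomes is at 0.01 when scaled to the cytonuclear genes), and only for NCE102 is the SRP72-bound over membrane value (4.42) above the membrane over soluble value (2.76).

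A ratio of 2 genes within a library needs no scaling. Set against the summed coat reads, both per length, SUR7 gave 299 and 264 reads per 100 coat reads in SRP72-bound polysomes and 105 and 72.1 in membrane polysomes, against 2.14 and 2.04 in soluble polysomes. NCE102 gave 14000 and 10200 in SRP72-bound polysomes and 569 and 373 in membrane polysomes, against 64.7 and 52.4 in soluble polysomes. PUN1 gave 92.7 and 87.6 in SRP72-bound polysomes and 52.5 and 36.5 in membrane polysomes, against 0.887 and 0.802 in soluble polysomes. For these 3 genes the order of the fractions in the within-library ratio was the same as in the scaled levels, with no overlap.

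Per kilobase the order of the genes changed from fraction to fraction. In SRP72-bound polysomes NCE102 led with 79800 ± 19400 scaled CPM per kb (SD, n = 2), followed by SUR7 with 1860 ± 199, PUN1 with 595 ± 34.8, PIL1 with 447 ± 5.45, LSP1 with 213 ± 6.86, YNL194C with 6.16 ± 0.54 and FMP45 with 3.4 ± 0.58. In membrane polysomes the order was NCE102 with 3740 ± 846, SUR7 with 705 ± 139, PIL1 with 525 ± 34.7, PUN1 with 353 ± 65.5, LSP1 with 277 ± 21.9, FMP45 with 1.01 ± 0.26 and YNL194C with 0.624 ± 0.0395. In soluble polysomes PIL1 came first with 606 ± 40.5, then NCE102 with 550 ± 44, LSP1 with 338 ± 24.1, SUR7 with 19.7 ± 0.658, PUN1 with 7.95 ± 0.0248, FMP45 with 0.117 ± 0.0801 and YNL194C with 0.0419 ± 0.0278. Of neighbours in these orders, PIL1 and NCE102 overlapped in soluble polysomes (578 and 635 against 581 and 519), as did FMP45 and YNL194C there (0.173 and 0.06 against 0.0222 and 0.0616), and the other pairs did not overlap. No test was made between genes.

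The gap between SRP72-bound and membrane polysomes differed widely among the spanning members. The authors' deposited table gives 163 codons from the first signal to the stop for NCE102, 259 for PUN1 and 294 each for SUR7 and YNL194C. In the authors' classes TMD and SSTMD, 615 genes were tested, with medians on the log2 scale of 6.08 for SRP72-bound against soluble, 4.45 for membrane against soluble and 1.09 for SRP72-bound against membrane polysomes. In SRP72-bound against membrane polysomes NCE102 stood above 94% of the class and YNL194C above 88.8%. SUR7 stood above 59.6%, FMP45 above 68.4% and PUN1 above 35.8%, so these 3 lay nearer the middle.

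Among the 139 genes of these classes with at most 200 codons from the first signal to the stop, NCE102 included, the medians were 4.57 for SRP72-bound against soluble, 0.86 for membrane against soluble and 2.98 for SRP72-bound against membrane. Among the 476 with more than 200 codons, where the 4 SUR7 family members fall, they were 6.21, 5.01 and 0.95. Spearman's rho between this length and the SRP72-bound over membrane value was -0.47 across the 615 genes, which share the same 6 libraries and are not independent replicates. NCE102 was thus on the side of the class where the SRP72-bound level is far above the membrane level. YNL194C, whose reading frame is as long as that of SUR7 after the signal, had a gap of 3.31 ± 0.25 on 29 membrane reads. The gap of SUR7 was 1.40 ± 0.15.

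**Figure D3:**
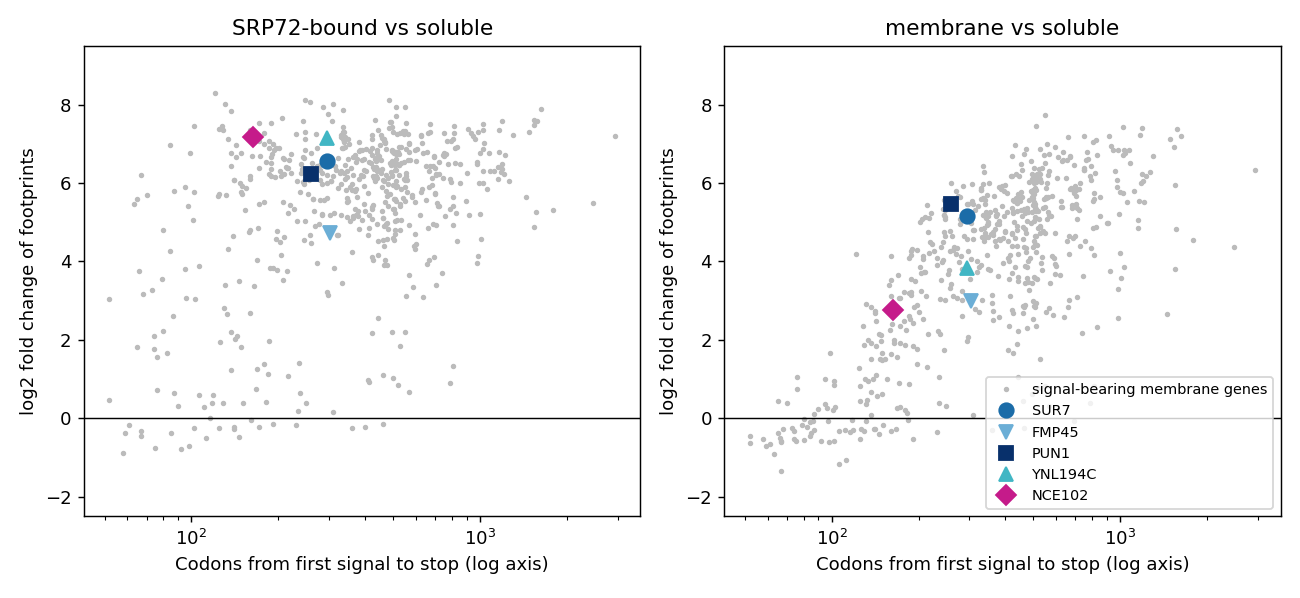
Fold changes of footprints on the log2 scale against the codons from the first signal to the stop (log axis) for the 615 genes of the authors' classes TMD and SSTMD, with SRP72-bound against soluble polysomes on the left and membrane against soluble polysomes on the right. NCE102, with 163 codons, sits at 7.18 on the left and 2.76 on the right, and SUR7, with 294 codons, at 6.56 and 5.16.

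The authors' deposited table also records how SRP met these ribosomes. For SUR7 it marks pronounced direct SRP binding at codon 65, unambiguously assigned, and SRP prerecruitment, which is binding before the signal has left the ribosome. For PUN1 it marks prerecruitment but no pronounced direct binding, and for NCE102 it marks neither. It gives no such call for FMP45 and YNL194C.

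Other genes of the eisosome and MCC were counted from lists that were likewise chosen by name. Of 6 other membrane proteins of the MCC, all 6 were higher in membrane than in soluble polysomes, where 34.2% of all genes were, with a median log2 change of 4.78 against -0.07 over all genes. They ranged from 2.00 ± 0.49 for FHN1, the paralog of NCE102, to 5.62 ± 0.15 for LYP1, a lysine permease (adjusted p = 9.44e-09 by edgeR). The SE of FHN1 was near those of FMP45 (0.47) and YNL194C (0.54), which had few reads. The filter on low counts may have fixed its direction, so its values over soluble polysomes are a description. FHN1, with 164 codons after its signal, was higher in SRP72-bound than in membrane polysomes by 5.17 ± 0.29 (adjusted p = 2.34e-06 by edgeR), next to 4.42 ± 0.24 for NCE102. All 6 were also higher in SRP72-bound than in soluble polysomes, where 38.6% of all genes were, with a median of 6.46. In SRP72-bound against membrane polysomes all 6 were higher, where 29.2% of all genes were.

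The other proteins with a SUR7/PalI domain were all 3 higher in membrane than in soluble polysomes, where 34.2% of all genes were. TOS7 was higher by 5.60 ± 0.23 on the log2 scale and RIM9, which acts in pH sensing, by 3.92 ± 0.30 (adjusted p of 7.93e-08 and 5.07e-06 by edgeR). DCV1 was higher by 2.56 ± 0.42. Its SE was near that of FMP45 (0.47), which had few reads, so its direction is a description. In SRP72-bound against membrane polysomes RIM9 was higher by 2.15 ± 0.22 and TOS7 by 0.51 ± 0.19, and DCV1, at 0.74 ± 0.33, did not pass the test (adjusted p of 7.44e-05, 0.0433 and 0.0892 by edgeR).

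The 7 other peripheral eisosome proteins were mixed. In membrane against soluble polysomes 4 were higher, 1 was lower and 2 did not pass, where 34.2% of all genes were higher and 34.8% lower, with a median log2 change of 0.33. SEG2 had the largest change (3.23 ± 0.09, adjusted p = 1.02e-08 by edgeR) and MDG1 the lowest (-0.27 ± 0.08, adjusted p = 0.0118 by edgeR). The other 3 called higher, named here after their values were seen, were SEG1, a factor that acts before PIL1 in eisosome assembly (3.19 ± 0.13), EIS1 (1.39 ± 0.11) and YGR130C (0.33 ± 0.07). SEG1, EIS1 and YGR130C are in the authors' cytonuclear class and SEG2 in their class of exceptions, and the table gives no signal for any of them. In SRP72-bound against soluble polysomes SEG1 (4.07 ± 0.14), SEG2 (3.72 ± 0.09) and EIS1 (1.39 ± 0.11) were called higher and MDG1 lower (-0.78 ± 0.08), where 38.6% of all genes were higher and 39.5% lower. SLM1 did not pass in membrane against soluble polysomes (0.05 ± 0.10). Its value is uncertain, since its reading frame overlaps another, and the sources used here do not give how strand was handled. Overlaps of other genes are not listed here.

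The flavodoxin-like proteins PST2, RFS1 and YCP4, which sit at the eisosome from the cytosolic side, were all lower in membrane than in soluble polysomes, by a log2 change of -0.54 ± 0.09, -0.58 ± 0.10 and -0.45 ± 0.09 (adjusted p of 0.00086, 0.00101 and 0.00192 by edgeR), where 34.8% of all genes were lower. They were lower in SRP72-bound than in soluble polysomes too, with a median of -0.93, where 39.5% of all genes were lower. The kinases PKH1 and PKH2, which phosphorylate the coat, did not pass the test in membrane against soluble polysomes (-0.09 ± 0.07 and -0.15 ± 0.12, adjusted p of 0.328 and 0.283 by edgeR). Neither passed in SRP72-bound against soluble polysomes (adjusted p of 0.816 and 0.0572 by edgeR). In SRP72-bound against membrane polysomes PKH2 was higher by 0.45 ± 0.13 (adjusted p = 0.0177 by edgeR), and PKH1 did not pass (0.11 ± 0.08, adjusted p = 0.281 by edgeR).

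Cultures given CHX at harvest had single libraries, so their values carry no test, and a gene is counted here where it was over 2-fold higher or lower. SUR7 had 96.6 scaled CPM in membrane ribosomes and 15.9 in soluble ribosomes, a log2 ratio of 2.59. PUN1 had 41.9 in membrane ribosomes and 5.6 in soluble ribosomes (2.89), and NCE102 had 413 in membrane ribosomes and 94.4 in soluble ribosomes (2.13). The coat genes were within 2-fold, at -0.23 for PIL1 and -0.22 for LSP1 (0 and 0.02 when scaled to the cytonuclear genes). FMP45, with 1 read in each library, and YNL194C, with 1 in membrane and 0 in soluble ribosomes, had too few reads for a ratio. Over 2-fold higher were thus 3 of the 5 members with enough reads, against 19% of all genes, and none was over 2-fold lower, against 0.427% of all genes. In the authors' classes TMD and SSTMD 484 of 589 genes were over 2-fold higher.

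In SRP72-bound against soluble polysomes of the CHX culture SUR7 had 841 scaled CPM when SRP72-bound and 10.3 when soluble (log2 ratio 6.34). PUN1 had 262 when SRP72-bound and 3.22 when soluble (6.31), and NCE102 had 8510 when SRP72-bound and 81.2 when soluble (6.71). FMP45 had 24 SRP72-bound and 5 soluble reads, and YNL194C had 17 reads in SRP72-bound polysomes and 0 in soluble polysomes, at least 10.4-fold higher in SRP72-bound against a floor of 3 reads. All 5 spanning members were over 2-fold higher, against 24.3% of all genes and 569 of 610 genes of the class. FMP45 and YNL194C reached the 10 reads needed only through the SRP72-bound library, so their direction is a description. Neither coat gene was over 2-fold lower, against 11.4% of all genes, with PIL1 at -0.46 and LSP1 at -0.50.

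Set against the cultures without drug, NCE102 had fewer footprints in both fractions with CHX. In SRP72-bound polysomes it had 8510 scaled CPM with CHX, against 48500 and 34300 without drug, a log2 ratio of -2.26 that stood above 6.44% of the authors' classes TMD and SSTMD. YNL194C, with few reads, was at -2.35 there, above 4.99% of the class. In soluble polysomes NCE102 had 81.2 with CHX, against 302 and 269 without drug, a log2 ratio of -1.81 that stood above 0.672% of the class. SUR7 was at 0.501 times its level without drug in SRP72-bound polysomes and at 0.581 times in soluble polysomes, and PUN1 at 0.559 and 0.519 times. On the log2 scale the class median was -0.56 in both fractions. The coat genes moved by 0.15 (PIL1) and 0.36 (LSP1) in SRP72-bound polysomes, and by 0.17 and 0.19 in soluble polysomes.

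The SRP72-bound count with CHX was 3 of 7 members over 2-fold lower, against 7.94% of all genes, and 0 over 2-fold higher, against 1.29%. Beside NCE102 these were FMP45, with 24 reads with CHX against 61 and 34 without drug, and YNL194C, with 17 reads against 102 and 64. In soluble polysomes NCE102 alone of 6 members with enough reads was over 2-fold lower, against 3.4% of all genes, and 0 were over 2-fold higher, against 0.365%. Of the class 190 of 622 genes were over 2-fold lower in SRP72-bound and 92 of 596 in soluble polysomes.

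The messages themselves were measured as poly(A) RNA in the CHX lysate of BY4741. Next to polysome footprints without drug, ratios were smaller for the spanning members and further below 0 for the coat. Against the membrane ribosomes of the CHX culture (SUR7 2.59, PUN1 2.89 and NCE102 2.13), membrane RNA ratios were not smaller. SUR7 had 1900 scaled CPM in SRP72-bound RNA and 469 in membrane RNA, against 72.5 in soluble RNA. NCE102 had 17400 in SRP72-bound and 1620 in membrane RNA, against 342 in soluble RNA, and PUN1 had 1100 in SRP72-bound and 235 in membrane RNA, against 25.5 in soluble RNA. The membrane over soluble log2 ratios were 2.69 for SUR7, 3.20 for PUN1 and 2.24 for NCE102, where the class median was 2.03. YNL194C had 65 reads in membrane RNA and 20 in soluble RNA, a log2 ratio of 1.95. Its 24 reads in SRP72-bound RNA gave a log2 ratio of 1.52 over soluble RNA, not above the membrane value.

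FMP45 was the exception among the spanning members. It had 223 reads in membrane RNA and 286 in soluble RNA, 10.4 and 9.82 scaled CPM, for a log2 ratio of 0.08 (95% counting interval from -0.17 to 0.34 before the prior count, and a ratio of -0.23 with library size as the only scaling), higher than 12.7% of the class. Of the 7 members 4 were over 2-fold higher in membrane RNA, against 17.8% of all genes, and 0 over 2-fold lower, against 5.33%. Of the class 448 of 623 genes were over 2-fold higher there. PIL1 was at -0.41 and LSP1 at -0.61. In SRP72-bound RNA all 5 spanning members were over 2-fold higher than in soluble RNA, against 22.1% of all genes, from 1.17 for FMP45 to 5.67 for NCE102, and both coat genes over 2-fold lower, against 21.6%, at -1.52 for PIL1 and -1.71 for LSP1. Of the class 552 of 630 genes were over 2-fold higher in SRP72-bound RNA. With library size as the only scaling FMP45 was at -0.03 in SRP72-bound RNA.

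Footprints set against mRNA of the soluble fraction showed the same gene apart. FMP45 had 10 footprint reads over both soluble polysome libraries and 286 soluble mRNA reads, 0.192 and 7.85 scaled CPM when footprint and RNA libraries were scaled together, a log2 ratio of -5.11. YNL194C had 3 footprint reads and 20 mRNA reads, a ratio of 0.105 before the prior count (95% counting interval on the log2 scale from -5.65 to -1.50). SUR7 and PUN1 were at -0.98 and -0.97, and NCE102 was at 0.78, where the class median was -1.59. PIL1 was at 0.66, and LSP1 was at 0.20, with -0.45 by library size alone and -0.01 by cytonuclear scaling. Over 2-fold lower were 2 of 7 members, against 24.3% of all genes, and 0 were over 2-fold higher, against 7.74%. Of these, YNL194C reached the 10 reads needed only through the RNA library, so its direction is a description. The footprint cultures had no drug and the RNA lysate held CHX, so assay and handling cannot be told apart in these ratios.

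After puromycin in the lysate 4 of the 5 spanning messages were within 2-fold between membrane and soluble RNA, and YNL194C was lower in membrane RNA. SUR7 had 255 scaled CPM in membrane RNA and 173 in soluble RNA, a log2 ratio of 0.56, next to 2.69 in the CHX lysate. PUN1 was at 0.77 with puromycin and 3.20 with CHX, and NCE102 at 0.30 with puromycin and 2.24 with CHX. These lay near the class median, which was 0.58 with puromycin and 2.03 with CHX. FMP45 was at 0.69 with puromycin and 0.08 with CHX, the one spanning member whose ratio was not lower with puromycin. YNL194C had 0 reads in membrane RNA and 43 in soluble RNA, at least 17.1-fold lower against a floor of 3 reads. PIL1 and LSP1 were at -0.19 and -0.06 (LSP1 at 0.01 when scaled to the cytonuclear genes).

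In membrane RNA with puromycin 0 of 7 members were over 2-fold higher, against 7.03% of all genes, and 1 (YNL194C) was over 2-fold lower, against 3.22%. Of the class 154 of 626 genes were over 2-fold higher there. In SRP72-bound against soluble RNA SUR7 was at 1.41 with puromycin and 4.71 with CHX, PUN1 at 1.94 with puromycin and 5.42 with CHX, and NCE102 at 0.70 with puromycin and 5.67 with CHX. Of these 3, NCE102 differed most between the lysates, standing above 30.7% of the class with puromycin and above 97% with CHX. FMP45 was at -0.98 with puromycin. YNL194C had 1 read in SRP72-bound RNA and 43 in soluble RNA, a ratio of 0.0482 before the prior count (95% counting interval on the log2 scale from -9.71 to -1.82). PIL1 was at -1.41 and LSP1 at -1.08, as in the CHX lysate below soluble RNA by over 2-fold. Over 2-fold higher were 2 of 7 members, against 17.8% of all genes and 382 of 624 genes of the class, and 3 were over 2-fold lower, against 22.7% of all genes. In membrane and SRP72-bound RNA with puromycin YNL194C reached the 10 reads needed only through the soluble library, so its direction is a description.

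**Figure D4:**
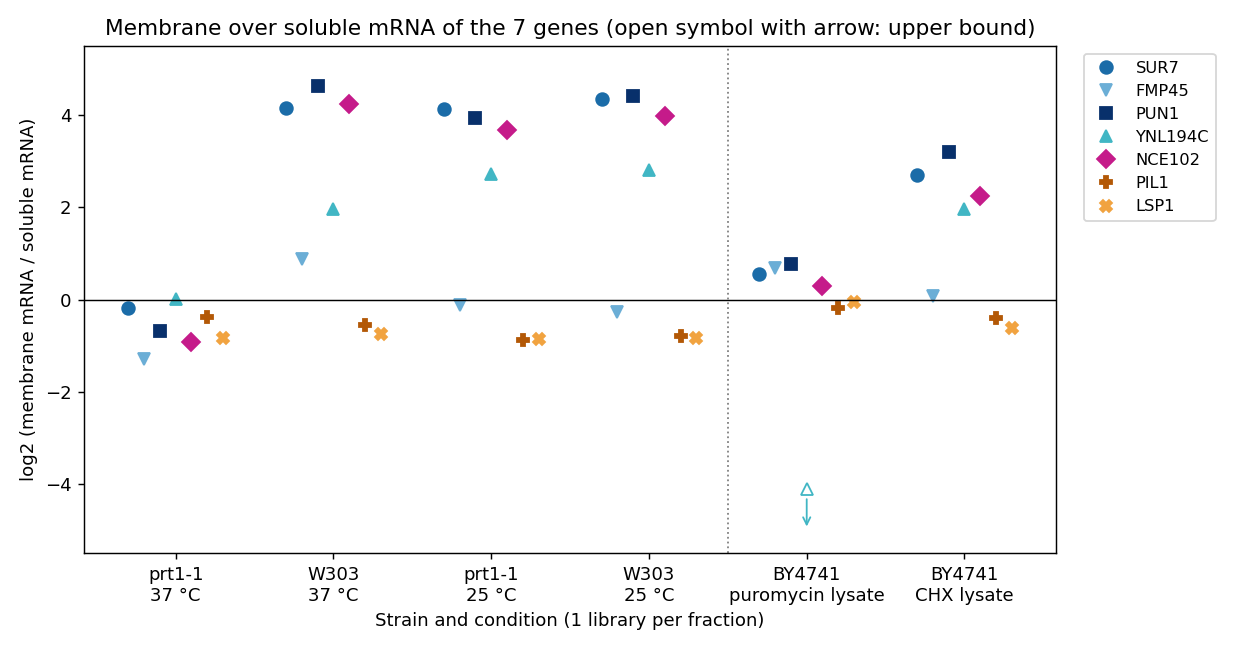
Membrane over soluble mRNA on the log2 scale for the 7 genes, in prt1-1 and W303 at 37 °C and 25 °C and in BY4741 lysates with puromycin or CHX, with 1 library per fraction; the open symbol with an arrow is the upper bound for YNL194C, which had 0 membrane reads. SUR7, PUN1 and NCE102 lie between 2.24 and 4.62 in every condition but prt1-1 at 37 °C and puromycin, where they lie between -0.92 and 0.77, and PIL1 and LSP1 are below 0 throughout with TMM scaling (LSP1 with puromycin is at 0.01 when scaled to the cytonuclear genes).

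PRT1 encodes a subunit of translation initiation factor eIF3, and the prt1-1 allele is temperature sensitive, so that initiation falls when the cells are warmed. In prt1-1 at 37 °C SUR7 had 43.6 scaled CPM in membrane RNA and 49.6 in soluble RNA, a log2 ratio of -0.19. In W303 at 37 °C it had 409 in membrane RNA and 23 in soluble RNA (4.15), in prt1-1 at 25 °C 905 in membrane RNA and 51.5 in soluble RNA (4.13), and in W303 at 25 °C 929 in membrane RNA and 45.8 in soluble RNA (4.34). The mutant at 37 °C was the one condition of the 4 in which SUR7 was not far higher in membrane RNA.

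NCE102 and PUN1 were likewise lowest in prt1-1 at 37 °C. The log2 ratio of NCE102 was -0.92 in prt1-1 at 37 °C, 4.24 in W303 at 37 °C, 3.67 in prt1-1 at 25 °C and 3.99 in W303 at 25 °C. That of PUN1 was -0.69 in prt1-1 at 37 °C, 4.62 in W303 at 37 °C, 3.94 in prt1-1 at 25 °C and 4.41 in W303 at 25 °C. In the last 3 conditions these 3 genes stood above 90.5% to 99.2% of the class, whose median was 2.38 in W303 at 37 °C, 1.99 in prt1-1 at 25 °C and 2.49 in W303 at 25 °C. In prt1-1 at 37 °C the class median was -0.17, and SUR7 stood above 48.7% of the class, PUN1 above 20.5% and NCE102 above 13.4%.

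FMP45 was again unlike its relatives, at -1.29 in prt1-1 at 37 °C, 0.89 in W303 at 37 °C, -0.12 in prt1-1 at 25 °C (0.08 when scaled to the cytonuclear genes) and -0.27 in W303 at 25 °C. YNL194C was at 0.01 in prt1-1 at 37 °C, with 200 membrane and 365 soluble reads, and at 1.96 in W303 at 37 °C, with 79 and 38 reads. At 25 °C it was at 2.72 in prt1-1, with 52 membrane and 9 soluble reads. In W303 at 25 °C YNL194C had 8 membrane and 3 soluble reads, a ratio of 9.76 before the prior count (95% counting interval on the log2 scale from 1.23 to 5.84). The coat messages lay below 0 in all 4 conditions, from -0.87 to -0.39 for PIL1 and from -0.85 to -0.75 for LSP1.

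Over 2-fold higher in membrane RNA were 0 of 7 members in prt1-1 at 37 °C, against 6.94% of all genes, and 4 each in W303 at 37 °C, prt1-1 at 25 °C and W303 at 25 °C, against 18.7%, 22.4% and 23% of all genes. Of the class 34 of 634, 470 of 624, 467 of 614 and 492 of 614 genes were over 2-fold higher in these conditions, in the same order. Over 2-fold lower was 1 member (FMP45) in prt1-1 at 37 °C, against 9.85% of all genes, and 0 in W303 at 37 °C, prt1-1 at 25 °C and W303 at 25 °C, against 3.91%, 13.2% and 7.56%. YNL194C, counted as higher at 25 °C in both strains, had under 10 soluble reads there, so its direction is a description.

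The soluble level of several messages moved with temperature as well. In prt1-1, FMP45 had 202 scaled CPM in soluble RNA at 37 °C, against 9.74 at 25 °C, and PUN1 had 406 at 37 °C, against 26.5 at 25 °C. NCE102 had 644 at 37 °C, against 76.8 at 25 °C, and YNL194C had 365 reads at 37 °C, against 9 at 25 °C. These 4 spanning members were over 2-fold higher, against 29.9% of all genes, with log2 ratios of 4.36, 3.93, 3.07 and 4.42 where the class median was 1.37. YNL194C reached the 10 reads needed only through the 37 °C library, so its direction is a description. SUR7, with 49.6 at 37 °C and 51.5 at 25 °C, was at -0.05 (0.53 with library size as the only scaling), and no member was over 2-fold lower, against 15.8% of all genes.

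In W303 the same shift gave log2 ratios of 1.77 for FMP45, 0.20 for PUN1, 0.54 for NCE102 and -0.99 for SUR7 in soluble RNA, where the class median was 0.24. YNL194C had 38 soluble reads at 37 °C and 3 at 25 °C, a ratio of 12.9 before the prior count (95% counting interval on the log2 scale from 2.03 to 6.03). FMP45 and YNL194C were thus over 2-fold higher at 37 °C in both strains, 2 of 7 members in W303, against 12.7% of all genes, with 0 over 2-fold lower, against 7.41%. In both strains YNL194C reached the 10 reads needed only through the 37 °C library, so its direction is a description. PIL1 moved by 0.27 in prt1-1 and 0.05 in W303, and LSP1 by 0.86 in prt1-1 and 0.34 in W303. Between the strains at 25 °C, prt1-1 against W303, 6 of the 7 soluble values were within 2-fold, from -0.11 for PIL1 to 0.56 for FMP45. YNL194C had 9 soluble reads in prt1-1 and 3 in W303, a ratio of 2.95 before the prior count (95% counting interval on the log2 scale from -0.44 to 4.08). Thus 1 member was over 2-fold higher, against 2.72% of all genes, and 0 over 2-fold lower, against 2.33%.

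The level in membrane RNA differed with temperature too. In prt1-1 SUR7 had 43.6 scaled CPM in membrane RNA at 37 °C, against 905 at 25 °C, while FMP45 had 82.7 at 37 °C, against 8.93 at 25 °C. NCE102 had 340 at 37 °C, against 981 at 25 °C, and PUN1 had 252 at 37 °C, against 407 at 25 °C. SUR7, NCE102 and PUN1 thus had a lower membrane level in prt1-1 at 37 °C than at 25 °C, PUN1 by less than 2-fold. The share of all genes and the class median were not taken for membrane levels between temperatures, so these levels are a description. For the membrane over soluble ratio in prt1-1, the class median of the change from 25 °C to 37 °C was -2.15 on the log2 scale. FMP45 and YNL194C had higher levels in both fractions, YNL194C with 20.4 scaled CPM in membrane RNA at 37 °C, against 6.11 at 25 °C. In W303 membrane RNA SUR7 had 409 scaled CPM at 37 °C, against 929 at 25 °C, NCE102 had 1910 at 37 °C, against 1110 at 25 °C, and PUN1 had 615 at 37 °C, against 464 at 25 °C. SUR7 was thus lower at 37 °C in both strains, while NCE102 and PUN1 were lower at 37 °C in prt1-1 and higher in W303, PUN1 by less than 2-fold in each strain and NCE102 by less than 2-fold in W303. FMP45 had 42.3 at 37 °C in W303, against 5.42 at 25 °C, and YNL194C had 79 reads at 37 °C, against 8 at 25 °C.

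**Figure D5:**
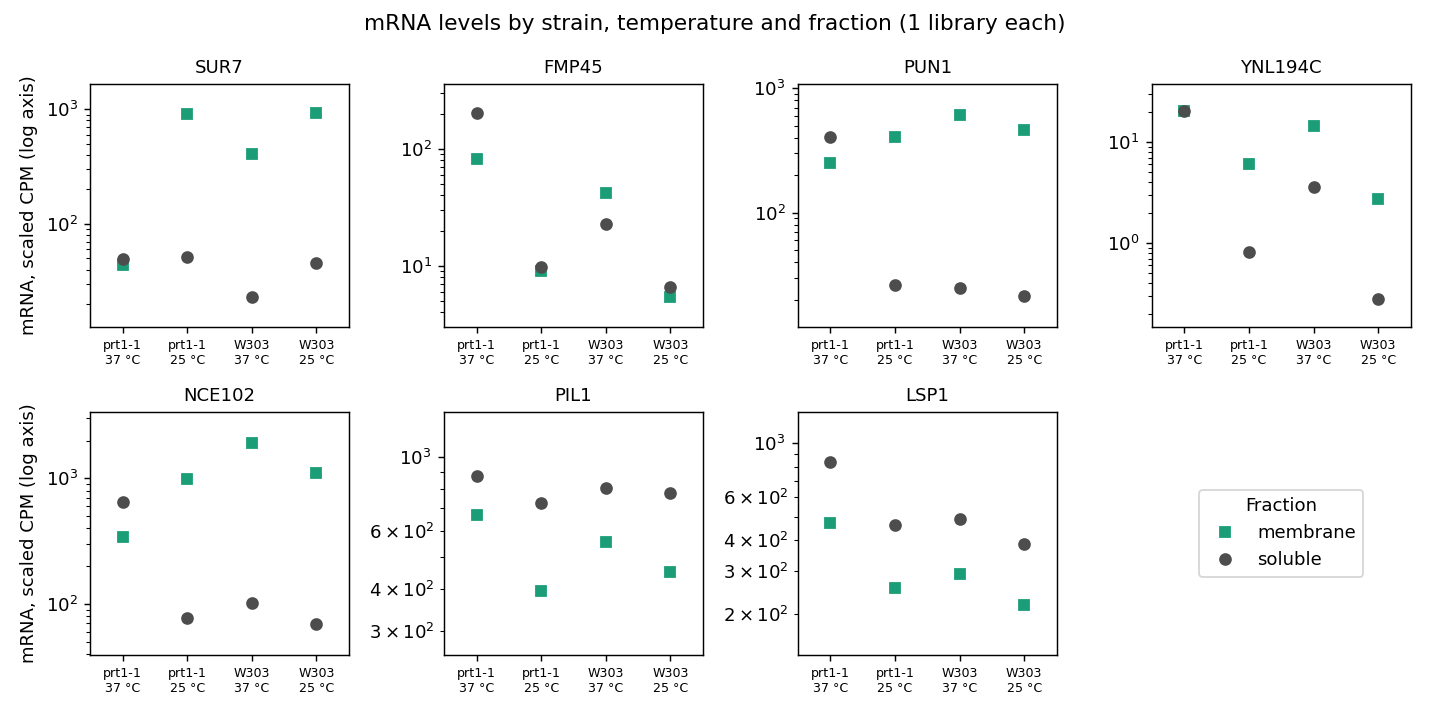
Levels of the 7 mRNAs in membrane and soluble RNA, in scaled CPM on a log axis with its own range per gene, in prt1-1 and W303 at 37 °C and 25 °C, with 1 library per point. Membrane SUR7 is at 43.6 in prt1-1 at 37 °C and at 409 to 929 in the other 3 conditions, and soluble PUN1 is at 406 in prt1-1 at 37 °C and at 21.6 to 26.5 in the others.

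PIL1 was above LSP1 per length in every library. The ratio of their reads per length was 1.75 to 2.13 over the 10 footprint libraries and 1.06 to 2.07 over the 14 RNA libraries, with 1.06 both in soluble RNA of prt1-1 at 37 °C and in SRP72-bound RNA with puromycin. The highest footprint ratios, 2.07 and 2.13, were those of the SRP72-bound polysomes without drug, next to 1.92 and 1.88 in membrane polysomes and 1.80 and 1.79 in soluble polysomes. PIL1 and LSP1 have similar sequences, and the sources used here do not give how reads matching several places were counted, so reads could have been divided between them.

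Over all 24 libraries the profile of log2 scaled CPM most like that of SUR7, among 5591 genes, was that of YKL154W, a subunit of the SRP receptor (Pearson r = 0.988), followed by SHR3 (0.988) and FUI1 (0.986). For NCE102 the nearest were VPS68 (0.988), VPS55 (0.985) and YOP1 (0.985), and for PIL1 they were RHO1 (0.919), SOL2 (0.918) and SNF4 (0.914). These values describe likeness across libraries that share fractions and assays.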

How the data were processed

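Ribosome footprints of about 30 nucleotides and poly(A) RNA fragments of about 40 nucleotides were counted per open reading frame. Each deposited count is a raw read number, per the file headers, with no normalization; CASAVA, cutadapt 1.3, Bowtie, TopHat and sacCer3 are named in the submitters' processing notes. The sources used here do not give how multiply matching reads and strand were handled. The authors' deposited table also holds log2 enrichments, which were not used for any result. The labels list 30 samples; 24 libraries were used and 6 monosome samples are not analysed here. The BY4741 RNA columns without a drug name must be the CHX lysate, since the remaining BY4741 columns name puromycin.

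Replicated footprints (3 fractions, 2 libraries each) were fitted together in R 4.3.3 with edgeR 4.0.16 (TMM, filterByExpr with minimum count 10 and total 15, quasi-likelihood test, Benjamini-Hochberg threshold 0.05). Of 5904 reading frames 5393 were tested, with 3 residual degrees of freedom and a common biological coefficient of variation of 0.0807. Replicates differed by more than sampling noise (chi-square per degree of freedom 15.3 to 89.5). Single libraries were compared by log2 ratios of TMM-scaled CPM with a prior count of 2, for genes with at least 10 reads over both sides, with no test. A gene with under 10 reads on the lower side passed only with reads of the higher side, so its direction there is a description. The fit was tested on simulated data. Alternatives were other scalings, no filter, DESeq2 1.42.0, 2-group fits, a replicate block, a prior count of 0.5 and leaving out each replicate. The 7 members are all named, and of other lists the highest and lowest gene in membrane against soluble polysomes, or all of 3 or fewer. Members and lists were chosen with earlier results of these data known.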

Additional observations from a re-analysis of the deposited data

Results flagged for a closer look

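Membrane over soluble mRNA ratios of some members had opposite signs in conditions that each had 1 library per fraction, so none of these differences was tested. In prt1-1, the log2 ratio at 37 °C minus that at 25 °C was -4.32 for SUR7, -4.62 for PUN1 and -4.59 for NCE102. The median of this difference over the authors' classes TMD and SSTMD was -2.15. At 37 °C, the log2 ratio in prt1-1 minus that in W303 was -4.33 for SUR7, -2.18 for FMP45, -5.31 for PUN1 and -5.16 for NCE102, where the class median was -2.45. For SRP72-bound over soluble mRNA, FMP45 was at -0.98 with puromycin and 1.17 with CHX, a difference of -2.14, where the class median was -2.4. YNL194C had 0 membrane reads in the puromycin lysate and 65 in the CHX lysate, and that difference was left out because of the count of 0. Its SRP72-bound over soluble ratio also changed sign, on few reads. It was below 0 with puromycin (1 SRP72-bound and 43 soluble reads) and above 0 with CHX (24 and 20 reads). In prt1-1 and W303 its membrane over soluble ratio was not below 0 in any condition.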

How the results depend on the processing

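SUR7, PUN1 and NCE102 were called higher in all 3 replicated comparisons under every alternative run and without each library in turn. FMP45 and YNL194C are not counted here, since the filter on low counts fixed the direction of their values over soluble polysomes. The coat calls were less stable. With scaling to the authors' cytonuclear genes, the all-gene median log2 became 0.15 for membrane against soluble polysomes and 0.25 for SRP72-bound against soluble polysomes, and the calls became 2329 higher and 946 lower (1846 and 1877 with TMM) and 2651 higher and 1290 lower (2084 and 2129 with TMM). For SRP72-bound against membrane polysomes they became 1808 higher and 1222 lower (1576 and 1605 with TMM). The coat members called lower were then 0 and 1 of 2, with PIL1 at 0.01 and LSP1 at -0.07 in membrane against soluble and PIL1 at -0.14 in SRP72-bound against soluble. With relative log expression factors LSP1 was at -0.25 in membrane against soluble (adjusted p = 0.051 by edgeR) and 0 coat members were called lower. Without each library in turn LSP1 ranged from -0.37 to -0.20 in membrane against soluble, losing its call without soluble replicate 2 or membrane replicate 1, and from -0.48 to -0.30 in SRP72-bound against membrane, losing it without membrane replicate 2 or SRP72-bound replicate 2; coat members called lower ranged from 0 to 1. A lone library left in a fraction is assumed to vary like the others.

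With the replicate number as a block, PIL1 was called lower in SRP72-bound against membrane polysomes (-0.23, adjusted p = 0.0459 by edgeR), making 2 coat members, and no other member's call changed. Deviations of same-numbered libraries correlated at 0.325, 0.12 and 0.0874 over 2 numbers that no label ties together, so the samples share only a number. The block gave 1898 higher and 2010 lower genes in membrane against soluble polysomes.

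In single libraries, library size alone gave 2 members over 2-fold lower in SRP72-bound polysomes with CHX, 3 over 2-fold higher in SRP72-bound mRNA of the CHX lysate and 4 lower in footprints against mRNA, as did cytonuclear scaling (4), which also gave 2 lower in soluble polysomes with CHX. Signs turned with cytonuclear scaling for PIL1 (0) and LSP1 (0.02) in membrane ribosomes with CHX, LSP1 with puromycin (0.01), FMP45 in prt1-1 at 25 °C (0.08) and LSP1 in footprints against mRNA (-0.01). They turned with library size for FMP45 in membrane (-0.23) and SRP72-bound (-0.03) mRNA of the CHX lysate, SUR7 in soluble prt1-1 RNA at 37 °C against 25 °C (0.53) and LSP1 in footprints against mRNA (-0.45). The cause was not tested. Depth limits FMP45 and YNL194C, with 10 and 3 soluble footprint reads without drug.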
